A study of Rattus norvegicus with 6 samples.

Results

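The genes described here are 10 core targets of the tumour suppressor p53 in the renal cortex of rats given potassium bromate: Cdkn1a, Mdm2, Ccng1, Bbc3, Btg2, Fas, Gdf15, Plk2, Sesn2 and Phlda3. Their probes were found by the transcript accession that the scanner files give for each probe, looked up in the RefSeq gene table. This gave 18 probes of 61537 on the array, and all 10 genes had at least 1. Renal cortex RNA came from male Sprague-Dawley (Crl:CD(SD)) rats bought at 5 weeks of age. The 3 rats of the control group were given water and the 3 rats of the treated group potassium bromate, an oxidising compound toxic to the kidney, at 100 mg/kg/day, both over 4 weeks. The design text calls the 3 animals of each group biological replicates, and each animal had 1 single-colour array. The tissue is a mixture of cell types, so fewer cells of a type and less RNA per cell cannot be told apart in any value below.

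Between 57.9% and 63.1% of the probes stood well above background on an array, with 0 saturated. One slide carried only water replicate 1, and the second slide carried the remaining arrays. All 6 proximal tubule markers examined, such as the endocytic receptor gene Lrp2, were well above background on every array, as the label renal cortex has it. Levels are given as log2 of a probe's signal over its array's 75th percentile. Differences are bromate minus water with the standard error of the limma fit, and a call means an adjusted p under 0.05 after Benjamini-Hochberg adjustment over all 37781 probes tested.

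p53 is a transcription factor that accumulates after DNA damage and binds response elements in its target genes. Each element is built from copies of a decamer. Some targets halt the cell cycle (Cdkn1a, Ccng1, Btg2, Plk2), some drive cell death (Bbc3, Fas), Mdm2 returns p53 to low levels by marking it for degradation, and others act on growth signalling and metabolism (Phlda3, Sesn2, Gdf15). In the kidney, Cdkn1a is known as a gene induced in tubules after toxic injury. Several of these genes also answer to factors other than p53. Gdf15 and Sesn2 are known targets of ATF4, the factor of the amino acid and unfolded protein responses.

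RefSeq promoter windows on build GRCr8, reaching from 250 bases before the transcript start to 50 after it, were held for 9 of the 10 genes, all but Bbc3, with 2 windows for Gdf15. They were searched for the p53 decamer consensus, which reads the same on both strands. An exact match lay in 2 of the 10 windows, those of Cdkn1a and Ccng1, against 7.98% of all 33469 promoter windows of the same length. A pair of exact matches with a spacer of at most 13 bases lay in 0 of the 10 and in 0.0598% of all windows. Pairs with an inexact decamer, and sequence outside the windows, were not searched. The counts therefore do not show that a full element is missing from any of these genes. The windows with a match are shown because Cdkn1a and Ccng1 are also the genes whose probes gave different calls. Capitals mark the decamer, which starts 201 bases before the transcript start in Cdkn1a (chr20:7150682-7150981, plus strand) and 232 bases before it in Ccng1 (chr10:25684827-25685126, minus strand). A match is a run of letters and was not tested as a binding site. 
Cdkn1a: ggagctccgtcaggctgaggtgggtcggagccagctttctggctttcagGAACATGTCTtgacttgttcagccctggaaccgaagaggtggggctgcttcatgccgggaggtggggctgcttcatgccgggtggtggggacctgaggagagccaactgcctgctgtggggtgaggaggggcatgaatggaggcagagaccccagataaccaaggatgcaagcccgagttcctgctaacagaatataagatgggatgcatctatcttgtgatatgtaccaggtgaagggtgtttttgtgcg
Ccng1: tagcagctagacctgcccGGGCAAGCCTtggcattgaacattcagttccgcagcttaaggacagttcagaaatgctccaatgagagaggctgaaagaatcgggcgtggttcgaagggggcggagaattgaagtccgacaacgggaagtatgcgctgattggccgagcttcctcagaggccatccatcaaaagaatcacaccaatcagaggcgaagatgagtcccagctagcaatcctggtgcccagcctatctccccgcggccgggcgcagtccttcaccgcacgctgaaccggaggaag

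The comparison asked which of these genes differed between the treated and the control cortex. At least 1 probe was called higher under bromate for 9 of the 10 genes, and every tested probe was called higher for 7 of them: Mdm2, Bbc3, Btg2, Fas, Gdf15, Plk2 and Phlda3. Of 17 probes tested 13 were called higher (76.5%), 0 were called lower and 4 were not called, against 7.19% of all probes tested called higher, 7.60% lower and 14.8% in either direction. At an unadjusted p under 0.05 the same test also gave 13 higher and 0 lower. The 4 not called were 2 of the 3 Cdkn1a probes, 1 of the 2 Ccng1 probes and the Sesn2 probe. The 13 called probes were also those whose 3 bromate values all lay above the 3 water values, which held for 20.0% of all probes tested, while all 3 lay below in 21.1%. Their differences ran from 0.63 for an Mdm2 probe to 2.70 for a Cdkn1a probe, and 9 were at least 2-fold, against 2.23% of all probes called higher at that size. The median difference was 1.18 over the 17 member probes and -0.02 over all probes tested. The 10 genes were chosen with earlier results of these data known, as were the lists below, so their shares beside all probes are a description. Leaving out 1 array left 8 to 12 member probes called higher, the lowest without bromate replicate 2.

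**Figure D1:**
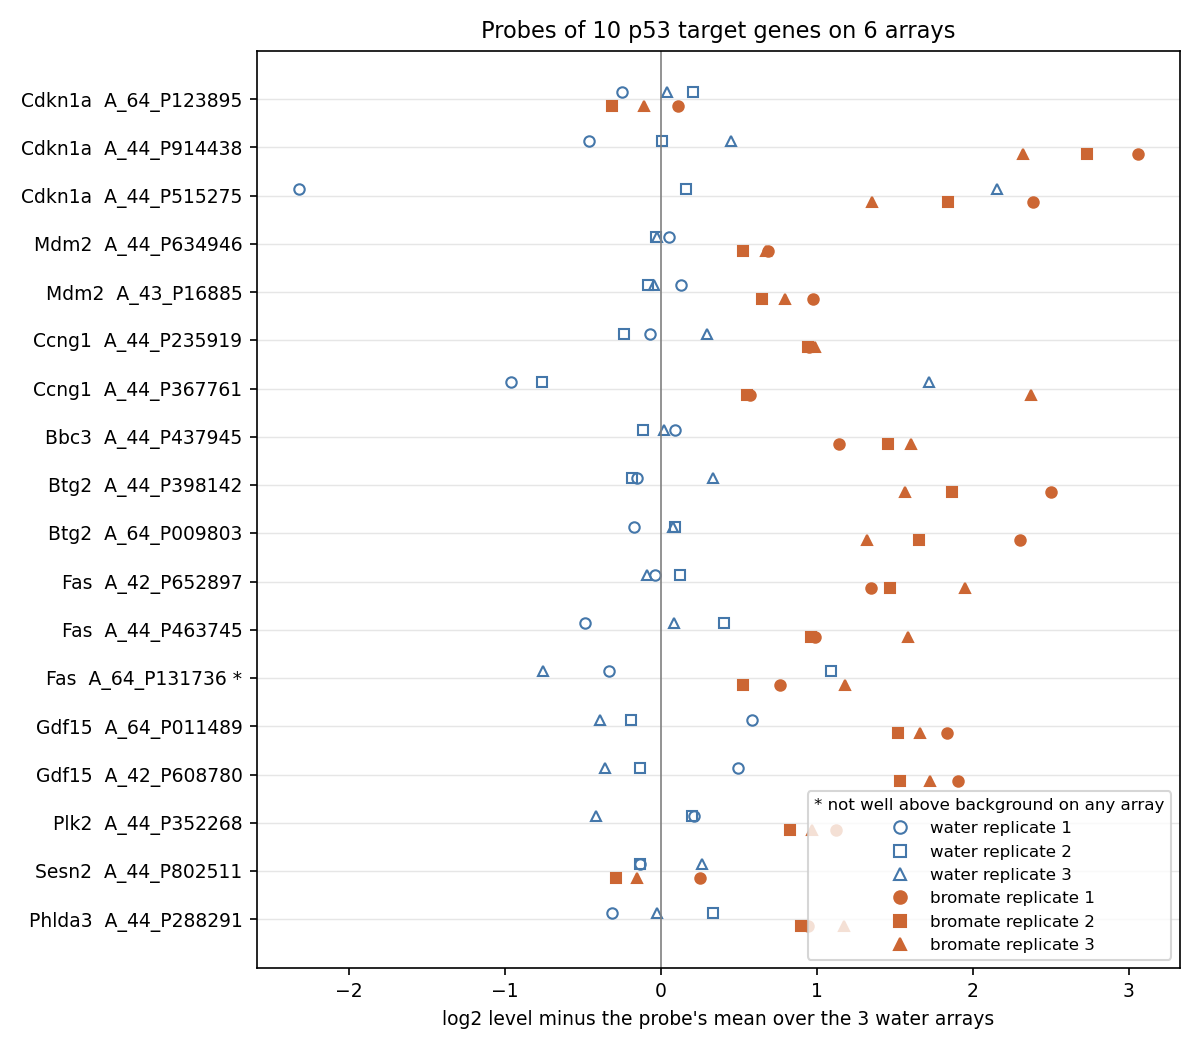
Each row is 1 probe of a p53 target gene, and each point is 1 array, plotted as the log2 level minus the mean of that probe's 3 water arrays (open blue, water; filled orange, bromate; the shape gives the replicate). In 13 rows all orange points lie right of all blue points; the exceptions are 2 Cdkn1a probes, 1 Ccng1 probe, the Sesn2 probe and the starred Fas probe, which never stood well above background and was not tested.

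Cdkn1a encodes p21, the inhibitor of cyclin-dependent kinases through which p53 halts the cell cycle. Its 3 probes, all listed under the transcript NM_080782, did not give the same picture. Probe A_44_P914438 read 0.23, 0.70 and 1.14 in water animals 1, 2 and 3, against 3.75, 3.42 and 3.01 in bromate animals 1, 2 and 3. The same order is used for every probe below. The groups were far apart, with the lowest bromate array above the highest water array, and the probe rose 6.52-fold (2.70 ± 0.28, limma adjusted p = 0.00540, n = 3 per group). Only 0.331% of all probes tested had a larger difference.

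Probe A_64_P123895, the brightest, read 4.82, 5.28 and 5.11 with water, against 5.18, 4.76 and 4.96 with bromate. The groups overlapped, and its difference was -0.10 ± 0.16 with a 95% confidence interval of -0.50 to 0.30 (limma adjusted p = 0.696). An increase of the size seen with A_44_P914438 lies outside that interval. Its unscaled signal was 21827 to 33613 units, and it was not marked as saturated on any array. Probe A_44_P515275, the dimmest, read -6.78, -4.30 and -2.31 with water, against -2.08, -2.62 and -3.10 with bromate. The low array was water replicate 1, where this probe was not well above background, and water replicate 3 lay above bromate replicates 2 and 3. The difference of 1.86 ± 1.09 was not called (limma adjusted p = 0.286). Its 95% confidence interval of -0.80 to 4.52 holds the differences of both other probes. The difference became 0.70 when water replicate 1 was left out and 2.94 when water replicate 3 was.

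Whether probes of one gene differed in response was tested on the array-wise log2 difference between a gene's brightest probe and each other probe of that gene, over all 8443 such pairs. Of these 60 were called (0.711%). The response of A_44_P914438 exceeded that of A_64_P123895 by 2.81 ± 0.24 (95% confidence interval 2.23 to 3.39, limma adjusted p = 0.0208). The size of this gap held on leaving out any 1 array (2.69 to 3.01), while its adjusted p was up to 0.0898 and passed only without bromate replicate 3. With slide as a block it was 2.70 (limma adjusted p = 0.0524), which amounts to leaving out water replicate 1, alone on its slide. For A_44_P515275 the gap to the brightest probe was 1.97 ± 1.02 (limma adjusted p = 0.419). Its 95% confidence interval of -0.56 to 4.49 is too wide to tell whether they respond alike. Positions of the probes on the transcript were not used here, and a cause of the disagreement was not tested.

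The genes whose probes followed A_44_P914438 most closely over the 6 arrays were Igfbp1, Myc and Bhlha15. Likeness was measured as the root mean square distance of log2 values centred on each probe's own mean, and these distances were 0.241, 0.290 and 0.322. Bhlha15 was well above background on only 2 of the 3 water arrays, so its likeness rests in part on readings near the floor. Igfbp1, which encodes a binding protein of insulin-like growth factors, read 0.77, 0.96 and 1.59 with water, against 4.57, 3.56 and 3.16 with bromate. Igfbp1 was chosen for this likeness, so its pattern is a description. Among the p53 targets the nearest was Btg2 (0.405 with probe A_44_P398142), at place 17 of the ranking.

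**Figure D2:**
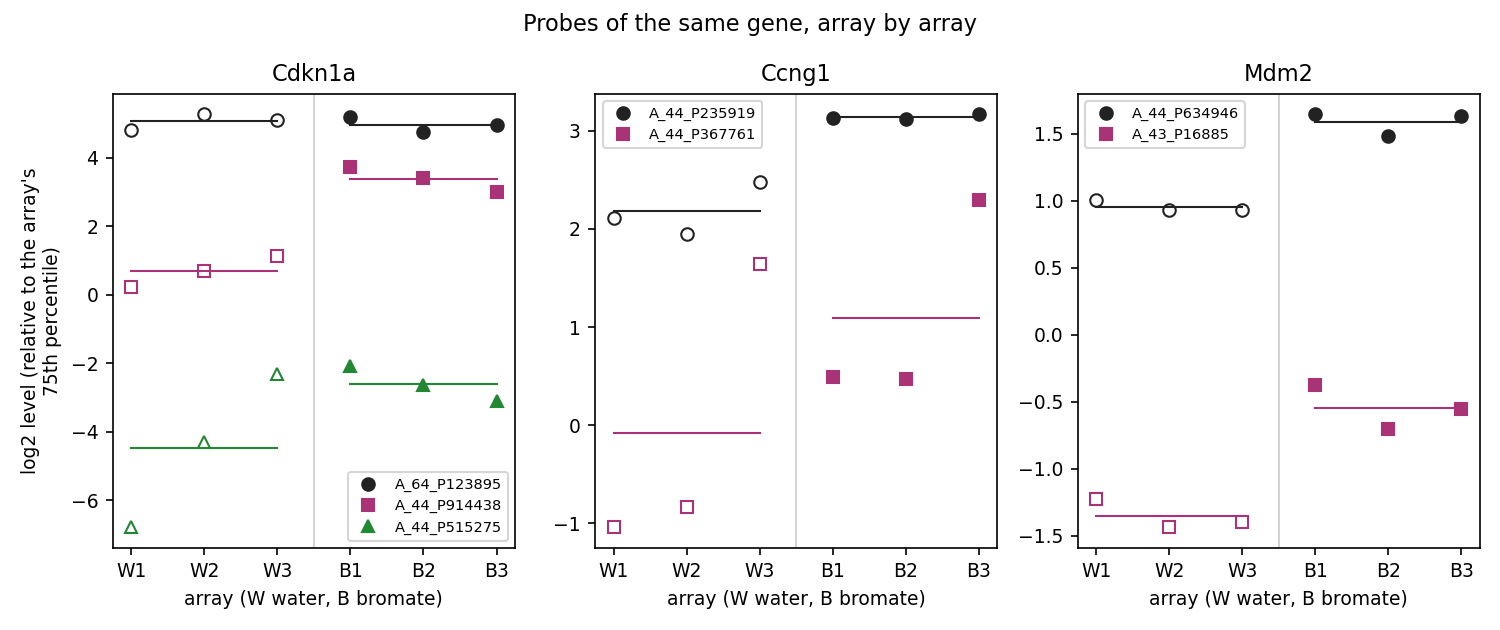
Log2 levels (relative to the array's 75th percentile) of each probe of Cdkn1a, Ccng1 and Mdm2 on the 3 water arrays (open) and the 3 bromate arrays (filled), with a line at each group mean. One Cdkn1a probe is flat, one is 6.52-fold higher and the dimmest has a wide water group; the second Ccng1 probe is high on replicate 3 of both groups; both Mdm2 probes step up without overlap.

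Other targets that restrain the cell cycle rose too. Btg2, an antiproliferative gene, read 0.08, 0.05 and 0.57 with water, against 2.74, 2.10 and 1.80 with bromate with probe A_44_P398142. Its other probe, A_64_P009803, read 0.09, 0.35 and 0.34 against 2.56, 1.91 and 1.58. Both probes put bromate replicate 1 highest and replicate 3 lowest, with no overlap between groups. They rose 3.94-fold (1.98 ± 0.27, limma adjusted p = 0.0114) and 3.39-fold (1.76 ± 0.26, limma adjusted p = 0.0128), and their responses differed by -0.22 ± 0.14 (limma adjusted p = 0.493).

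Plk2, a polo-like kinase gene that p53 induces, read -2.94, -2.96 and -3.57 with water, against -2.03, -2.33 and -2.19 with bromate. The groups did not overlap, and Plk2 rose 1.96-fold (0.97 ± 0.20, limma adjusted p = 0.0287). The call was lost on leaving out water replicate 2 or any of the 3 bromate arrays (limma adjusted p = 0.0658 to 0.0786), and the difference was 0.46 with normexp background correction of the median spot signal and quantile normalization together.

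Ccng1 encodes cyclin G1, which recruits a phosphatase to Mdm2. Probe A_44_P235919 read 2.11, 1.95 and 2.48 with water, against 3.13, 3.12 and 3.17 with bromate. The bromate arrays lay close together (SD 0.02), and the probe rose 1.95-fold (0.96 ± 0.15, limma adjusted p = 0.0143; 0.0537 without bromate replicate 2). Probe A_44_P367761 read -1.04, -0.84 and 1.64 with water, against 0.49, 0.47 and 2.29 with bromate. Replicate 3 was the high array in both groups, and water replicate 3 lay above bromate replicates 1 and 2. Its difference of 1.16 ± 0.86 was not called (limma adjusted p = 0.393). Leaving out water replicate 3 gave 2.02, and leaving out bromate replicate 3 gave 0.56. The responses of the Ccng1 probes differed by 0.20 ± 0.77 (95% confidence interval -1.70 to 2.11), an interval too wide to tell whether they respond alike.

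Mdm2, the ubiquitin ligase gene that closes the negative feedback loop on p53, had the smallest of the called differences. Probe A_44_P634946 read 1.01, 0.93 and 0.93 with water, against 1.64, 1.48 and 1.63 with bromate. Probe A_43_P16885 read -1.23, -1.44 and -1.40 against -0.38, -0.70 and -0.55. The spread within each group was narrow, at an SD of 0.04 to 0.16, and neither probe overlapped between groups. Mdm2 rose 1.55-fold by the former (0.63 ± 0.08, limma adjusted p = 0.0103) and 1.75-fold by the latter (0.81 ± 0.12, limma adjusted p = 0.0126; 0.0535 without water replicate 2). Their responses differed by 0.18 ± 0.07 (limma adjusted p = 0.315).

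Both members of the cell death arm rose. Bbc3 encodes PUMA, a BH3-only protein that sets off apoptosis at the mitochondrion. It read 0.00, -0.20 and -0.07 with water, against 1.05, 1.36 and 1.51 with bromate, with no overlap. The rise of 2.64-fold (1.40 ± 0.14, limma adjusted p = 0.00457) stayed called on leaving out any 1 array, with an adjusted p up to 0.0268.

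Fas encodes a death receptor of the cell surface. Probe A_42_P652897 read -2.44, -2.28 and -2.49 with water, against -1.05, -0.93 and -0.45 with bromate. Probe A_44_P463745 was dimmer and read -5.37, -4.48 and -4.80 against -3.90, -3.92 and -3.30. On water replicate 1 it was not well above background, so its fold rests in part on a value near the floor. Bromate replicate 3 was highest with both probes, and neither overlapped between groups. The brighter probe rose 3.01-fold (1.59 ± 0.17, limma adjusted p = 0.00585) and stayed called on leaving out any 1 array. The dimmer one rose 2.27-fold (1.18 ± 0.28, limma adjusted p = 0.0421). That call was lost whichever of the 6 arrays was left out (limma adjusted p at least 0.0632), and the difference was 0.50 with normexp background correction and quantile normalization together. The third Fas probe, A_64_P131736, never stood well above background and has no fold.

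Leukocytes also express Fas, so their markers are given beside it. Of 7 lymphocyte markers listed, 6 had a probe and 4 were tested, with 0 called by limma and 0 at an unadjusted p under 0.05. Their summed linear level (in units of the array's 75th percentile) was 2.24 to 2.47 with water, against 1.65 to 2.42 with bromate. Cd79b never stood well above background, and Cd3e was so on 1 array of each group. Of 5 macrophage markers 4 were tested, with 0 called by limma and 1 higher at an unadjusted p under 0.05, and sums of 2.54 to 2.84 with water and 2.81 to 4.76 with bromate. With 8.76% of all gene symbols called higher and 8.54% lower, 0 calls among 4 genes is near the background. The lymphocyte sums overlapped between groups with the bromate arrays reaching lower, and the macrophage sums overlapped with the bromate arrays reaching higher. The part of these cells in the Fas difference was not tested.

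Gdf15, which encodes a secreted stress cytokine of the TGF-beta family, read 0.74, -0.04 and -0.24 with water, against 1.99, 1.67 and 1.81 with bromate with probe A_64_P011489. With probe A_42_P608780 it read 0.62, -0.01 and -0.23 against 2.03, 1.66 and 1.85. The probes tracked each other array by array, and water replicate 1 was the high water array in both. Gdf15 rose 3.19-fold (1.67 ± 0.26, limma adjusted p = 0.0155) and 3.30-fold (1.72 ± 0.24, limma adjusted p = 0.0111), with a gap in response of 0.05 ± 0.06 (95% confidence interval -0.10 to 0.20). The former call was lost without water replicate 2 (limma adjusted p = 0.0616) or bromate replicate 2 (0.0511).

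Phlda3, an inhibitor of AKT signalling, read -3.29, -2.65 and -3.01 with water, against -2.03, -2.08 and -1.81 with bromate. It rose 2.01-fold without overlap (1.01 ± 0.18, limma adjusted p = 0.0217). The call was lost on leaving out water replicate 3 or any bromate array (limma adjusted p = 0.0545 to 0.0687).

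Sesn2 encodes sestrin 2, which restrains mTORC1. It was the 1 gene of the 10 with no probe called. It read 0.01, 0.02 and 0.41 with water, against 0.40, -0.14 and -0.01 with bromate. The groups overlapped in part, with bromate replicates 2 and 3 below every water array, and the difference was -0.06 ± 0.18 with a 95% confidence interval of -0.52 to 0.39 (limma adjusted p = 0.835), which leaves out a 2-fold change either way.

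Because Gdf15 and Sesn2 answer to ATF4 as well, a list of 13 ATF4 stress genes was set beside them, of which 12 were tested by their brightest probe. Of these 4 were called higher, Asns, Gdf15, Trib3 and Atf5, and 0 lower (6 and 0 by limma at an unadjusted p under 0.05), against 8.76% higher and 8.54% lower among all 11572 gene symbols tested. The list median was 0.45, against -0.02 over all genes. Asns, the asparagine synthetase gene, read -0.69, -0.84 and -0.95 with water, against 1.60, 1.42 and 1.74 with bromate (5.32-fold higher, 2.41 ± 0.12, limma adjusted p = 0.000931). The pseudokinase gene Trib3 rose 3.08-fold (limma adjusted p = 0.0203; 0.0633 to 0.0681 when water animal 2 or 3 or bromate animal 3 was dropped), with a log2 difference of 1.62 that became 0.97 under normexp and quantile normalization. Atf5 rose 1.56-fold (limma adjusted p = 0.0272; 0.0614 to 0.0881 when any single animal except bromate animal 2 was dropped). Atf4 itself had a difference of 0.56 ± 0.16 that was not called (limma adjusted p = 0.0692). Chac1, which encodes a glutathione-degrading enzyme, had a brightest probe that was not called (0.20 ± 0.10, limma adjusted p = 0.217). Its dimmer probe A_44_P776556, named after its values were seen, was at least 7.74-fold higher. It passed the filter on dim probes only through the bromate arrays, so no p-value is given for it. That fold is a lower bound, set against the lowest signal well above background, because the probe was not well above background on the 3 water arrays. Beside Sesn2, the other genes not called by their brightest probe are named to complete the list. They were Ddit4 (0.88), Vldlr (0.35), Ddit3 (-0.10), Psat1 (-0.11) and Phgdh (-0.27). The list's members thus included Gdf15, which rose, and Sesn2, which was not called.

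The treated animals did not rank the same way from gene to gene. Bromate replicate 1 was the highest of the 3 for 11 of the 17 tested probes and replicate 3 for 6, and replicate 2 was highest for 0 and lowest for 11. Among all 2717 probes called higher, replicates 1, 2 and 3 were highest in 47.6%, 29.4% and 23.1% and lowest in 31.3%, 32.8% and 36%. The 17 include 4 probes that were not called, so the sets compared are not alike. Cdkn1a (A_44_P914438) and both Btg2 probes were highest in replicate 1 and lowest in replicate 3. Bbc3 and both Fas probes were highest in replicate 3, as were Phlda3 and Ccng1 (A_44_P235919). With 3 animals these orders are a description.

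**Figure D3:**
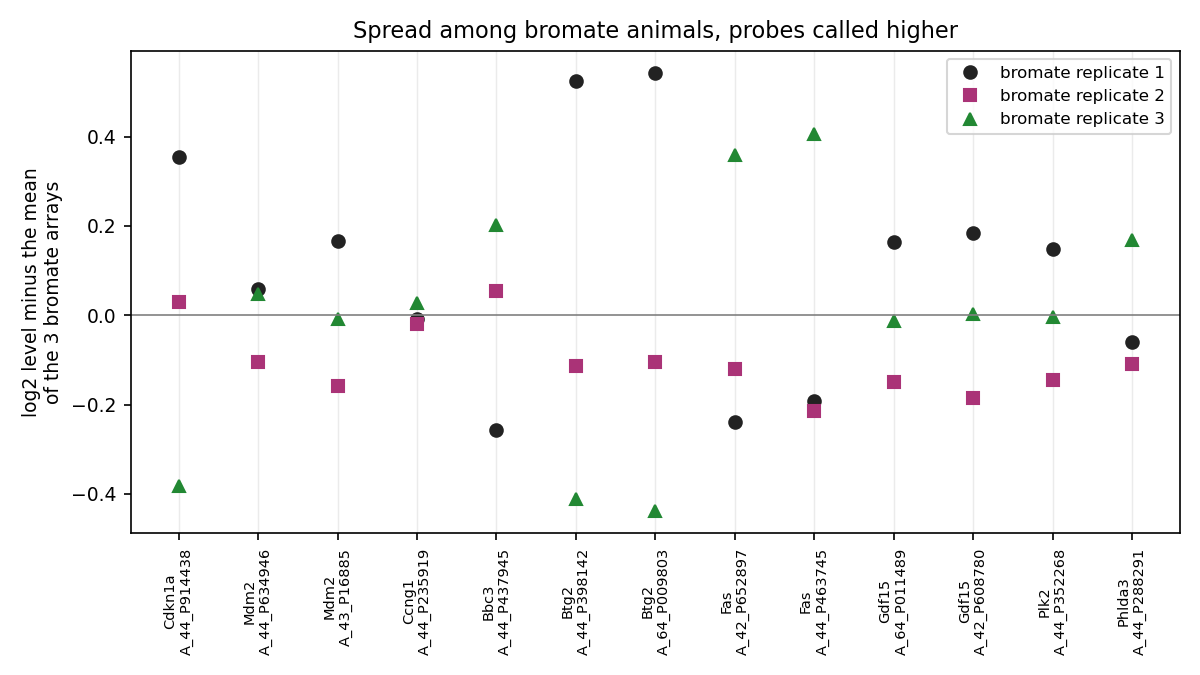
For each of the 13 probes called higher, the level on each bromate array minus the mean of the 3 bromate arrays (log2). Replicate 1 is the highest point for Cdkn1a, Btg2, Mdm2, Gdf15 and Plk2, and replicate 3 for Ccng1, Bbc3, Fas and Phlda3.

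A wider list of 38 other p53 targets held 31 genes with a named probe, of which 30 were tested by their brightest probe. Of these 8 were called higher (26.7%), 0 lower and 22 were not called, against 8.76% higher and 8.54% lower among all gene symbols, with a median difference of 0.31. By limma at an unadjusted p under 0.05, 12 were higher and 2 lower. Atf3, a stress-induced transcription factor gene, was 10.8-fold higher (3.44 ± 0.39, limma adjusted p = 0.00653). Ephx1, an epoxide hydrolase gene, rose 2.03-fold (1.02 ± 0.17, limma adjusted p = 0.0171; up to 0.0658 when water animal 2 or 3 or bromate animal 3 was dropped). Apaf1, which encodes the scaffold of the apoptosome, read -2.62, -2.49 and -2.67 against -1.81, -1.50 and -1.66 and rose 1.91-fold (0.93 ± 0.11, limma adjusted p = 0.00717). None of these 3 genes overlapped between groups.

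A further 4 of the 8, named after their values were seen, were Zmat3 (1.59-fold), Tigar (1.42-fold), Pcna (1.29-fold) and the BCL2 family gene Bax (1.29-fold). The calls of Pcna (limma adjusted p = 0.0471) and Bax (0.0444) stood nearest the threshold. Bax lost its call whichever animal was dropped, and Pcna unless the dropped one was bromate animal 1, with limma adjusted p up to 0.130 and 0.135. Tigar lost it without water replicate 3 or bromate replicate 2 or 3 (up to 0.0558). The count called higher was 4 without water replicate 2 or bromate replicate 2 or 3 and 3 without water replicate 3.

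**Figure D4:**
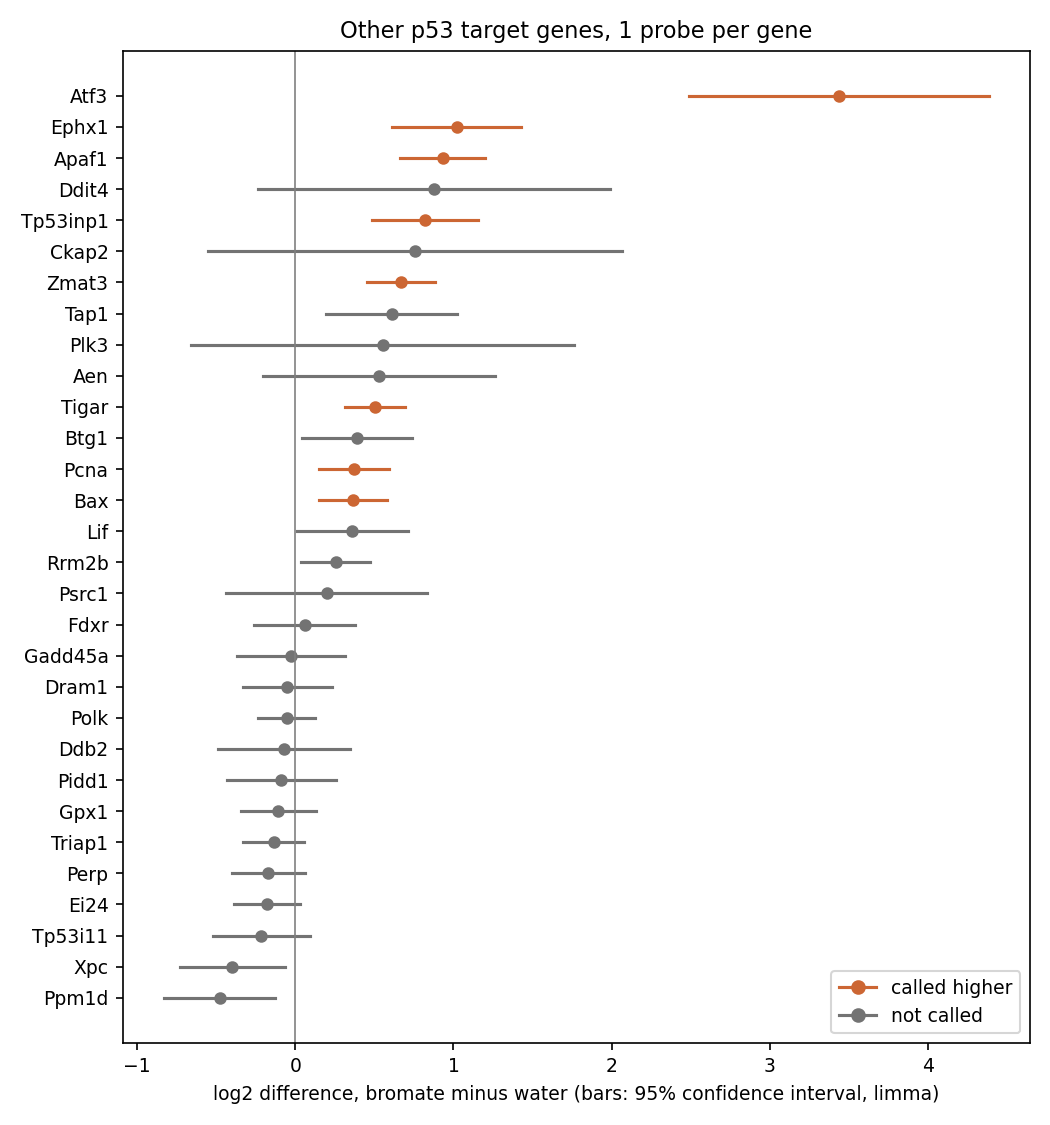
Log2 difference (bromate minus water) of the brightest probe of each of the 30 other p53 targets tested, with its 95% confidence interval from limma. The 8 genes called higher (orange) run from 0.37 for Bax to 3.44 for Atf3, and intervals of most of the 22 genes not called (grey) cross 0.

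Genes that regulate p53 had no call by their brightest probe, where 8.76% of all gene symbols were called higher and 8.54% lower. Of 18 regulators listed, 14 were tested, too few to tell 0 calls from those shares. By limma 0 were called, with 2 higher and 2 lower at an unadjusted p under 0.05 and a list median of -0.07. Dimmer probes of 2 of them, named after their values were seen, were called: the checkpoint kinase gene Chek2 was higher with A_42_P605265 (0.66 ± 0.10, limma adjusted p = 0.0157), and the phosphatase gene Ppm1d was lower with A_43_P19411 (-0.48 ± 0.11, limma adjusted p = 0.0366). Their brightest probes had differences of 0.40 and -0.48 (limma adjusted p = 0.0573 and 0.0746). Ppm1d is also among the other p53 targets counted above by their brightest probes. Mdm4, which encodes the partner of Mdm2 in restraining p53, had a difference of 0.01 ± 0.09 (95% confidence interval -0.22 to 0.23).

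A list of 13 genes held cyclins, kinases, inhibitors related to p21 and other cell cycle proteins. Of these 4 were called higher and 1 lower, against 8.76% and 8.54% of all gene symbols. The 1 lower is a share near that background. Ccne1, which encodes cyclin E1, read -3.42, -3.48 and -3.62 with water, against -1.89, -1.19 and -1.59 with bromate (3.86-fold, 1.95 ± 0.19, limma adjusted p = 0.00426). With normexp background correction and quantile normalization together the differences were smaller but called, at 1.20 for Ccne1 and 0.73 for Cdk6. Cdk6 rose 2.17-fold (limma adjusted p = 0.0231) and E2f1, an activator of DNA replication genes, 1.81-fold (0.0338), beside Pcna. Cdkn1c, which encodes the related inhibitor p57, fell: its brightest probe, A_44_P223978, read 2.30, 2.77 and 2.48 with water, against 2.01, 1.58 and 1.59 with bromate (1.73-fold lower, limma adjusted p = 0.0367). The 5 Cdkn1c probes had differences between -0.73 and -0.81. Leaving out 1 array could end the calls of Cdk6 (up to 0.0801, any array other than water replicate 1), E2f1 (up to 0.0973, any other than bromate replicate 1) and Cdkn1c (up to 0.111, any other than water replicate 1 or bromate replicate 1). Of 11 tested cell cycle genes that p53 and p21 repress through the DREAM complex, 2 were called higher and 0 lower (3 and 0 by limma at an unadjusted p under 0.05), against 8.76% and 8.54% of all gene symbols. The list median was 0.66, against -0.02 over all genes. Cdk1, not called and named after its values were seen, read 1.40, 1.23 and 0.64 with water, against 0.80, 2.53 and 2.31 with bromate. Kif23, a kinesin gene of cytokinesis, rose 1.82-fold (0.86 ± 0.07, limma adjusted p = 0.00270) and the replication licensing gene Mcm2 1.41-fold (limma adjusted p = 0.0391; up to 0.118 when any single animal except bromate animal 1 was dropped).

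Some tubule marker lists moved with the treatment as well. Among all gene symbols 8.76% were called higher and 8.54% lower. All 4 thick limb and distal tubule markers fell, with summed levels of 268 to 491 with water, against 57.5 to 104 with bromate. Of 6 proximal tubule markers 3 fell, with sums of 1030 to 1033 against 705 to 788. Of 4 collecting duct markers 1 fell and 3 were not called, and their sums overlapped (130 to 193 with water, 140 to 258 with bromate). That list is too short to set 1 call apart from the share of all genes. Of 5 injured tubule markers Havcr1 (8.11 ± 0.35) and Spp1 (4.82 ± 0.09) were called higher, Lcn2 (3.71 ± 1.16) and Vcam1 (-0.40 ± 0.16) were not called, and Krt20 never stood well above background. Havcr1 was well above background on only 2 of the 3 water arrays, so the size of its difference depends on readings near the floor. The summed level of the injured tubule markers, 13.7 to 14.4 with water and 209 to 241 with bromate, was mostly Spp1. The part of these shifts in the levels of the p53 targets was not tested.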

How the data were processed

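Spots were read with Agilent's Feature Extraction, version 10.7 (submitters' processing notes). For each spot the authors deposited a processed signal, an intensity with background subtracted, per the file headers; it carries no scaling across arrays. Their array design is annotated on build rn4, per the file headers. Their series value table, also deposited, gives a ratio that matched processed signal over the array's 75th percentile to within 0.367% for ratios above 0.1; the labels do not state its scale.

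Here the processed signal was divided by its array's 75th percentile over non-control probes and taken to log2, without outlier spots (0 to 4 per array). Probes well above background on at least 3 of 6 arrays were tested one by one with limma 3.58.1 (lmFit, eBayes) in R 4.3.3, 3 bromate against 3 water, n = 3 per group. The scripts were tested on simulated data. Of 61537 probes 28206 had 1 gene symbol through their RefSeq accession. For gene lists the brightest tested probe stood for a gene. The members and lists were chosen with earlier results of these data known. Genes named from each list were up to 4 with the largest called difference in each direction, plus Mdm4 and, for called Cdkn1a probes, the 3 most similar probes; of the genes so chosen, some are left out of the text. Alternatives were other scalings, background correction, the value table, filters, outlier spots, variance models, array weights, slide and replicate blocks, single arrays left out, and summaries per gene.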

Additional observations from a re-analysis of the deposited data

How the results depend on the processing

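The counts of member probes called higher (13) and of all probes called (2717 higher, 2873 lower) depended on single arrays, the filter and the block. With no filter on dim probes 1091 probes were called higher and 1023 lower, 4 other p53 targets and 4 probe pairs were called, and Phlda3 (1.01), Fas A_44_P463745 (1.18), Plk2 (0.97) and the Cdkn1a probe gap (2.81) no longer passed, with more probes tested. Slide as a block amounts to leaving out water replicate 1, alone on its slide. With it 32 pairs were called, and Fas A_44_P463745 (0.94) and the Cdkn1a gap (2.70) did not pass. Pairs called numbered 291 with normexp and quantile normalization and 158 with array weights, against 60. Taking 1 probe per gene left 8 of the 10 genes called higher by the brightest probe and 7 by the mean of a gene's probes. By that mean Cdkn1a had a difference of 1.49, opposite in sign to its brightest probe, Ccng1 (1.06) was not called, and 1 other p53 target was called lower. The cause was not tested. Leaving out 1 array gave 871 to 2064 probes called higher and 785 to 2310 lower, 8 to 12 member probes, 3 to 9 other p53 targets and 2 to 32 pairs. Differences then spanned 0.85 to 1.17 for Phlda3, 1.48 to 1.97 for Gdf15 A_64_P011489, 0.72 to 0.89 for Mdm2 A_43_P16885, 0.94 to 1.38 for Fas A_44_P463745, 0.85 to 1.11 for Ccng1 A_44_P235919, 0.77 to 1.08 for Plk2 and 2.69 to 3.01 for the Cdkn1a gap. Values near 0 changed sign: the brightest Cdkn1a probe spanned -0.23 to 0.000597 (0.000597 without water replicate 2, 0.000501 without bromate replicate 2), Sesn2 -0.22 to 0.068 (0.068 without water replicate 3, 0.05 without bromate replicate 2), and Mdm4 spanned -0.051 to 0.068, with -0.02 on leaving out water replicate 2.

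Both groups use replicate numbers 1 to 3. Deviations of same-numbered samples correlated at 0.0561, 0.0734 and -0.091, and those of differently numbered samples at -0.124 to 0.0901. With 3 arrays per group these correlations cannot decide whether the numbers pair the animals. With the replicate block 829 probes were called higher and 757 lower, 7 member probes, 4 other p53 targets and 0 pairs. Phlda3 (1.01), Fas A_44_P463745 (1.18), Btg2 (1.98 and 1.76), Ccng1 A_44_P235919 (0.96), Plk2 (0.97) and the Cdkn1a gap (2.81) kept their size and were not called.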
